A study of Mus musculus with 24 samples.

Results

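The livers of 6 old p16-3MR mice given vehicle were compared by sex, 3 females (livers 27, 28 and 29) against 3 males (livers 24, 25 and 26), out of 24 livers in the series. The livers were chosen by genotype, treatment and sex as their labels give them, and the comparison was confined to genes on autosomes, which are 20935 of the 21755 genes in the count table of this genotype. All 6 mice carry 3MR, a reporter and suicide cassette that includes the viral thymidine kinase, inserted at p16Ink4a within a bacterial artificial chromosome. The cassette therefore marks cells with an active p16 promoter, and the mice otherwise aged without a disease model. The vehicle (VEH), water at pH 11, was injected into the peritoneum on 5 days in a row each month from an age of 16 to 18 months, and the livers were taken at about 28 months. Strain was not given in the labels. A liver here is 1 mouse and 1 library, and no liver was pooled. The sexes of old p16-3MR mice given ganciclovir (GCV) and of young wild-type mice given vehicle are set beside the result near the end. These are other mice, the young ones treated for 3 months from 6 months of age and labelled as another batch.

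Sex differences of the rodent liver arise mostly in hepatocytes. The pituitary of a male releases growth hormone in separated pulses, while that of a female keeps it in the blood almost without a break, and the hepatocyte reads the difference through the growth hormone receptor, JAK2 and the transcription factor STAT5B. Pulses maintain male-biased genes such as the major urinary proteins and Cyp2d9. Steady exposure keeps up female-biased genes such as Cyp3a and Sult2a members, with CUX2 and HNF6 among the factors that differ in activity. Most of the products are enzymes and carriers that handle steroids, bile acids and drugs. Immune cells of the liver, Kupffer cells above all, add their own RNA to a bulk sample.

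The 6 libraries held 5211559 to 7160172 counts, so 3 counts, the limit that a count of 0 allows, correspond to 0.405 (male 24) to 0.604 CPM (male 25) (counts per 1000000, scaled by edgeR's trimmed mean of M values) in 1 liver. This limit and all counting intervals cover counting error only. Xist had 4360 to 6483 counts in the female livers and 0 or 1 in the males. Hepatocyte genes were abundant in each liver, with Alb at 98398, 114098 and 84073 CPM in female livers 27, 28 and 29 and at 36196, 71527 and 77647 CPM in male livers 24, 25 and 26; per-liver values keep this order throughout. Male liver 24 stood apart. Over 12077 autosomal genes with a mean of at least 10 counts, its rank correlation with the other 5 livers was 0.811 to 0.897, against 0.893 to 0.96 between those 5. It had the fewest counts, the most genes counted (18645 against 16962 to 17727) and the least mitochondrial RNA (12.5% of counts against 13.3% to 21.9%), and 27.6% of autosomal genes tested had their highest level of the 6 livers there. Its summed Kupffer cell markers reached 4097 CPM against 424.5 to 1949 in the others. Results are therefore given with and without liver 24.

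Of 18982 autosomal genes in the test (edgeR, quasi-likelihood, with p-values adjusted by Benjamini and Hochberg), 36 had an adjusted p under 0.05, 29 of them higher in females (0.153%) and 7 higher in males (0.0369%). The groups did not overlap for any of the 36. Those higher in females were sulfotransferases of the Sult2a and Sult3a families (7 genes), cytochromes of the Cyp3a family (5, with 1 pseudogene), cytochromes of Cyp2a and Cyp2c (5), and 12 others led by A1bg. Those higher in males were Cyp4a12a, Mup20, Mup-ps19, Susd4, Cyp2d9, Peg10 and Ociad2. An unadjusted p under 0.05 was reached by 468 genes higher in females (2.47%) and 439 lower (2.31%). DESeq2 called 108 higher (0.569%) and 67 lower (0.353%), which hold all 36, and limma's voom with quality weights 46 (0.242%) and 36 (0.19%). In bulk tissue, fewer cells of a type and less RNA of a gene per cell cannot be told apart. Every liver weighed on the count. It was 23 without female 27, 19 without female 28, 19 without female 29, 159 without male 24, 15 without male 25 and 20 without male 26. The 36 genes kept their direction in all of these fits, and 10 of them were called in each one: A1bg, Cyp2a4, Cyp3a16, Cyp3a44, Cyp3a63-ps, Eci3, Slc22a26, Sult2a1, Sult2a2 and Sult2a5.

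Many called genes are neighbours. Of the 36, 20 lie within 1000000 bases of another (GRCm38 coordinates throughout). The interval chr5:145436309-145805874 holds Cyp3a16, Cyp3a41b, Cyp3a63-ps, Cyp3a41a and Cyp3a44, all higher in females, and 5 of its 6 tested genes were called. On chromosome 7, chr7:13623967-14254870 holds 6 Sult2a genes among 10 tested, and chr7:26307169-26939384 holds Cyp2a4 and Cyp2a22 among 4. On chromosome 19, chr19:39510862-39886799 holds Cyp2c39, Cyp2c40 and Cyp2c69 among 5. Members of these families are near copies of each other, and libraries read from the 3′ end leave the estimation little sequence to tell them apart. The split of counts within a family is therefore uncertain, and near copies are not separate evidence of direction. All called members in these intervals were higher in females, but other members went the other way. Cyp2c67, within the chromosome 19 interval, was at 153, 100 and 119 CPM in females and 146, 348 and 270 CPM in males. Its log2 fold change was -1.04 (edgeR adjusted p = 0.865), and -1.33 without male 24 (0.0487). Cyp2c54 (-1.91 without male 24, edgeR adjusted p = 0.00321) and Cyp3a11, given below, also had lower levels in females. A1bg and Fam84b, which are not related in sequence family, lie 43081 bases apart on chromosome 15, in an interval with 3 tested genes, and both were higher in females.

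The promoters of the neighbouring Cyp3a genes are shown because these genes moved together and their start sites share almost the same sequence. RefSeq promoters (GRCm38.p6, 250 bases before to 50 after the start) were matched to 25 of the 36 genes by symbol. Each was searched on both strands for ATTGAT, the core that HNF6 and CUX2 can bind, and for TTCNNNGAA, the palindrome that STAT5 and BCL6 can bind; the 2 motifs share no bases in the matches below. Of the promoters of genes higher in females, 9 of 22 held ATTGAT, against 7.54% of all 32851 promoters of this length, and 3 of 22 held TTCNNNGAA, against 8.3%. The first count includes 4 near copies. None of 3 matched promoters of genes higher in males held either motif, which says only that these letters are not in the window. The stretches below run 5′ to 3′ on the minus strand, end at base -1 before the start (at -5 for Cyp3a16) and have the match in capitals, where ATCAAT is ATTGAT on the other strand: chr5:145720137-145720252, chr5:145584731-145584846, chr5:145805875-145805990 and chr5:145469728-145469843 in this order.
Cyp3a41a: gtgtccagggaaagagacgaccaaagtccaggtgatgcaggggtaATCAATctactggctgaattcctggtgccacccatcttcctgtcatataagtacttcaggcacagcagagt
Cyp3a41b: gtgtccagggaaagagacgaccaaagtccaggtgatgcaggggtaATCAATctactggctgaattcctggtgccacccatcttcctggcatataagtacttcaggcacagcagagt
Cyp3a44: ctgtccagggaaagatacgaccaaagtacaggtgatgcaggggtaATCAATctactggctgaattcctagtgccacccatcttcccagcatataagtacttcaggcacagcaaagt
Cyp3a16: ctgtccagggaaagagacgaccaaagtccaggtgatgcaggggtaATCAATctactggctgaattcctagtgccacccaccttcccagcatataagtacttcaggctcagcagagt
Over these 116 bases, Cyp3a41a and Cyp3a41b are 99.1% identical, and the other pairs are 93.1% to 95.7% identical. The match begins at -71 in 3 of them and at -75 in Cyp3a16.

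The promoters with TTCNNNGAA belong to A1bg, Slc22a26 and Sult3a1. They are shown from -200 to -1, 5′ to 3′, from chr15:60921271-60921470 (minus strand), chr19:7802668-7802867 (minus strand) and chr10:33857522-33857721 (plus strand), with the palindrome in capitals. It begins at -84, -141 and -109.
A1bg: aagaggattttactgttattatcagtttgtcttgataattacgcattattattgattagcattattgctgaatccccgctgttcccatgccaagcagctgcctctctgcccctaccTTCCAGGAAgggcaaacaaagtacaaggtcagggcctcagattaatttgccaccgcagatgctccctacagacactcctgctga
Slc22a26: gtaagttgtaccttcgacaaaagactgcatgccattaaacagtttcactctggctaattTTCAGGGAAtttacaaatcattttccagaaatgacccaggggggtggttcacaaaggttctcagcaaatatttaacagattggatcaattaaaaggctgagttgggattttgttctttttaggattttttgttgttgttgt
Sult3a1: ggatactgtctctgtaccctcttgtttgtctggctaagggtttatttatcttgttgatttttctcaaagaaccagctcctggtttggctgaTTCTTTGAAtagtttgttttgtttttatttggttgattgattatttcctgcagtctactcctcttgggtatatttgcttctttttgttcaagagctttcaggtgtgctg
The 3 promoters hold ATTGAT or its complement as well. A match is a description of sequence, and no binding was measured in these livers.

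The Cyp3a genes encode monooxygenases that hydroxylate steroids and drugs. Cyp3a41a (chr5:145694049-145720136) was at 9003, 6459 and 4790.1 CPM in the female livers and at 0, 1.01 and 1.24 CPM in the males, a log2 fold change of 13.19 ± 1.10 (SE, n = 3 and 3; edgeR adjusted p = 0.00278). Cyp3a41b, its near copy, was at 2159.7, 1457 and 632 CPM in females and 2.97, 0 and 4.43 CPM in males. Cyp3a44 was at 804, 556 and 419 CPM in females and 2.30, 2.21 and 5.32 CPM in males, and Cyp3a16 at 466, 239 and 236 CPM in females and 0.676, 1.21 and 1.06 CPM in males. No male came near a female in these 4 genes, and Cyp3a41a had the highest mean level of the 29 genes called higher in females. The pseudogene Cyp3a63-ps had 49.7, 47.3 and 37.1 CPM in females and no count in any male, which puts it at least 267-fold higher in females when the males are set to 3 counts over the group (edgeR adjusted p = 0.00152).

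Cyp3a11, the main drug-inducible member of the same family, went the other way in level. It was at 83.4, 69.5 and 571 CPM in females and 1469, 2032 and 2419.6 CPM in males. The groups did not overlap, but the edgeR log2 fold change of -3.03 ± 0.84 did not pass (adjusted p = 0.597; 0.148 without male 24; DESeq2 adjusted p = 0.00405 with all 6 livers).

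Sulfotransferases of the Sult2a family, which attach sulfate to bile acids and hydroxysteroids, were female genes in these counts, with at most 1 count of each of 6 members in any male liver. Sult2a1 (chr7:13796246-13837409) was at 439, 206 and 325 CPM in females with no count in any male, at least 1965-fold higher (edgeR adjusted p = 0.00205). Sult2a2 was at 136, 56.8 and 124 CPM in females, against 1 count in male 26. Sult2a5 was at 114, 43.3 and 117 CPM, against 1 count in male 24. With 1 count the ratios are loose: 1936 for Sult2a2 with a 95% counting interval of 347 to 76486, and 1679 (301 to 66371) for Sult2a5. Sult2a3 (80.7, 13.7 and 41.8 CPM in females), Sult2a6 (35.4, 10.99 and 29.997 CPM) and Sult2a4 (16.6, 5.92 and 9.26 CPM) followed the same pattern, and Sult3a1, which sulfates amines, was at 32.6, 25.02 and 8.09 CPM with no male count. Female 28 had the lowest level of the 3 females for each Sult2a gene. That liver also had the highest acute phase levels, given further on, and their part in its low Sult2a levels was not tested.

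The Cyp2a and Cyp2c enzymes add hydroxyl or epoxide groups to steroids and fatty acids. Cyp2a4, a steroid hydroxylase, was at 957, 612 and 671 CPM in females and 9.60, 8.45 and 11.2 CPM in males (log2 fold change 6.26 ± 0.36, edgeR adjusted p = 0.000551). Cyp2a22 was at 291, 48.3 and 178 CPM in females, the lowest again in female 28, and at 2.70, 2.21 and 3.90 CPM in males. Cyp2c69 was at 1601, 699 and 708 CPM in females and 2.84, 3.62 and 8.33 CPM in males (log2 fold change 7.67 ± 0.66). For these 3 genes liver 24 lay between or just below the other males. Cyp2c40 differed in that male 24 (4.05 CPM) was below males 25 and 26 (19.7 and 15.9 CPM), with females at 404, 162 and 296 CPM. The smallest level of the 5 was that of Cyp2c39, at 26.5, 14.7 and 18.4 CPM in females and 0.946, 2.82 and 2.48 CPM in males.

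**Figure D1:**
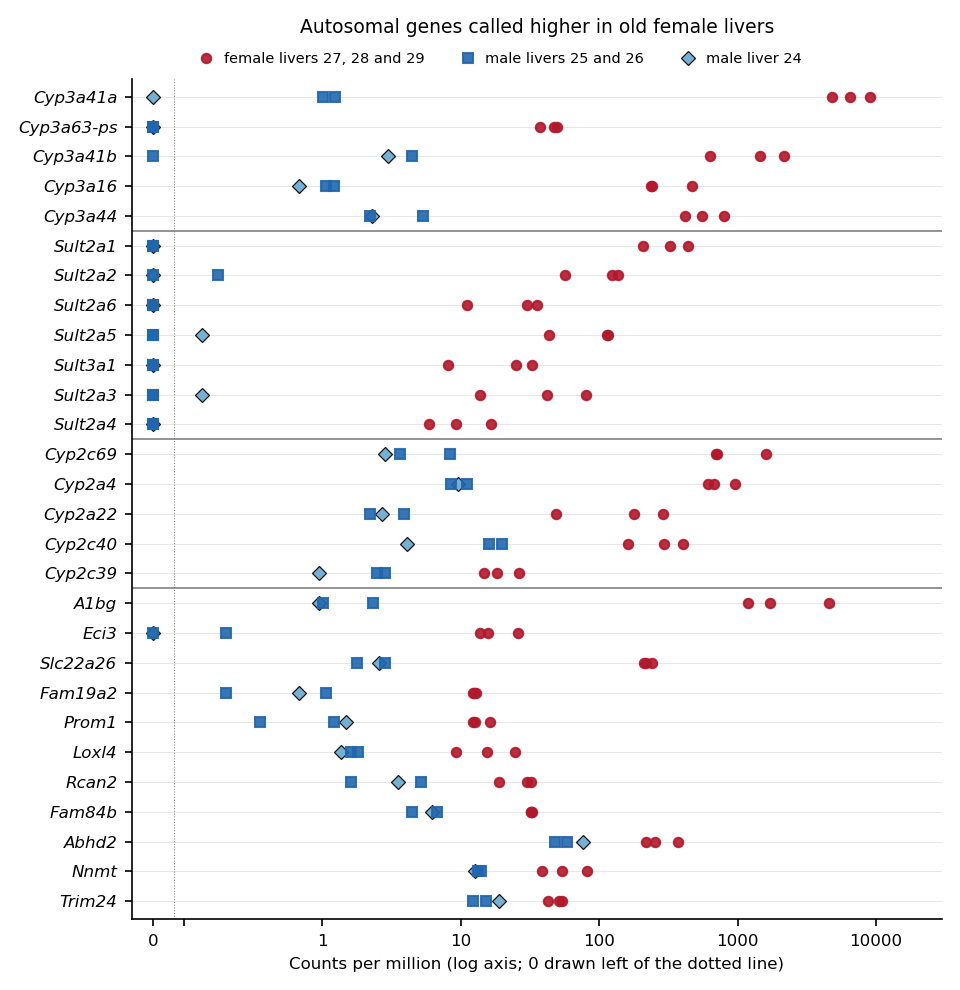
Level of 28 of the 29 autosomal genes called higher in old female livers, in CPM on a log axis, with 1 point for each of 3 female and 3 male livers and families separated by lines (Cyp3a, Sult, Cyp2a with Cyp2c, others). No male liver reaches any female liver in a row, and male liver 24 lies among or below the other males in most rows.

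Outside these families the largest difference among the genes called higher in females was that of A1bg, a plasma glycoprotein of the immunoglobulin superfamily (chr15:60896859-60923012). It was at 4573, 1191 and 1709 CPM in females and 0.946, 1.01 and 2.30 CPM in males, a ratio of mean CPM of 1756 (log2 fold change 10.77 ± 0.87, edgeR adjusted p = 0.00244). Eci3, an enoyl-CoA isomerase of fatty acid oxidation, was at 25.8, 15.7 and 13.7 CPM in females, with 1 count in the males. The lowest adjusted p of all autosomal genes, 0.000262, belonged to Slc22a26, an organic anion transporter, with 210.1, 219.6 and 240.3 CPM in females and 2.57, 2.82 and 1.77 CPM in males. Relative to their level, its females differed by less than those of any Cyp or Sult gene named above.

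The remaining genes higher in females were less abundant or differed less. Abhd2, a lipid hydrolase, was at 254, 373 and 217 CPM in females and 76.1, 47.7 and 58.8 CPM in males (log2 fold change 2.21 ± 0.31, edgeR adjusted p = 0.0472). Nnmt, the methyltransferase of nicotinamide, was at 54.1, 81.6 and 38.7 CPM in females and 12.7, 13.3 and 13.997 CPM in males. Trim24, a cofactor of nuclear receptors, was at 53.98, 51.2 and 42.3 CPM in females and 18.8, 15.3 and 12.2 CPM in males and had the smallest fold change of the 36 (1.67 ± 0.23). The males of Nnmt were nearly level. Prom1, which encodes the progenitor and bile duct marker CD133, was at 16.3, 12.3 and 12.6 CPM in females and 1.49, 1.21 and 0.354 CPM in males. Fam84b was at 32.2, 31.9 and 32.6 CPM in females and 6.22, 4.43 and 6.73 CPM in males. Loxl4, Rcan2 and Fam19a2, a lysyl oxidase, a calcineurin regulator and a secreted peptide, had mean CPM 10.4, 7.87 and 19.4 times as high in females. Slc22a26, Cyp2a22, Cyp2c39, Cyp2c40, Fam19a2, Fam84b, Loxl4, Nnmt, Rcan2 and Trim24 fall outside the rule for named genes and were chosen after their values were seen.

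Of the 7 genes higher in males, Mup20 was by far the most abundant. It encodes darcin, a urinary protein that acts as a male pheromone. It was at 10.4, 8.79 and 7.94 CPM in females and 3173, 12981 and 7369 CPM in males (log2 fold change -9.76 ± 0.82, edgeR adjusted p = 0.00278), and Mup-ps19 beside it on chromosome 4 was at 0, 1.35 and 0.735 CPM in females and 63.9, 183 and 132 CPM in males. Male 24 was the lowest male for both. Cyp4a12a, the fatty acid hydroxylase that makes a vasoactive eicosanoid, showed the same order, at 0, 0.169 and 0 CPM in females and 10.9, 228 and 191 CPM in males. Its ratio rests on 1 female count (ratio 2452, 95% counting interval 439.7 to 96907; edgeR adjusted p = 0.0472). Cyp2d9, a testosterone hydroxylase, was at 4.27, 2.87 and 6.91 CPM in females and 80.2, 379 and 379 CPM in males. Susd4, a complement regulator, was at 0.152, 0.338 and 0.294 CPM in females and 7.97, 21.7 and 20.9 CPM in males, and Ociad2 at 3.20, 2.03 and 1.91 CPM in females and 15.003, 29.2 and 25.9 CPM in males. In these 6 genes male 24 was below both other males yet above every female. Peg10, an imprinted gene derived from a retrotransposon, was the exception, at 0.610, 0.676 and 0.588 CPM in females and 7.30, 5.83 and 5.67 CPM in males with male 24 highest.

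Without male 24, 159 autosomal genes were called by edgeR (n = 3 and 2), 73 higher in females (0.403%) and 86 higher in males (0.475%). All 36 genes were among them. Of the 123 others, 79 were higher in males, and in 74 of these liver 24 was below both other males, while in 34 of the 44 higher in females it was above both. Being called only without liver 24 favours such a place, so these counts describe the selection. In 31 of the 79, liver 24 did not exceed the highest female. The genes named here from those 123 were picked after their values were seen, as members of the gene lists. Hsd3b5, a male-specific steroid reductase of hepatocytes, had no count in the females or in male 24 and was at 68.8 and 144 CPM in males 25 and 26 (edgeR adjusted p without male 24 = 0.000433). Elovl3, a fatty acid elongase, was at 0.305, 0.338 and 1.32 CPM in females and 2.57, 283 and 205 CPM in males, so that liver 24 held 1.05% of the mean of the other males (adjusted p = 0.222 with it and 3.68e-05 without it, edgeR). Slco1a1, a carrier of organic anions and steroid sulfates, was at 0, 0.507 and 0 CPM in females and 17.2, 267 and 394 CPM in males. Liver 24 sat between the sexes for Slco1a1 and among the females for Nudt7, a peroxisomal coenzyme A diphosphatase at 51.8, 28.7 and 39.7 CPM in females and 33.7, 274 and 355 CPM in males. Liver 24 also held more immune and dividing-cell RNA and less Alb than males 25 and 26, as given further on, and the part of either in its low male-biased levels was not tested.

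**Figure D2:**
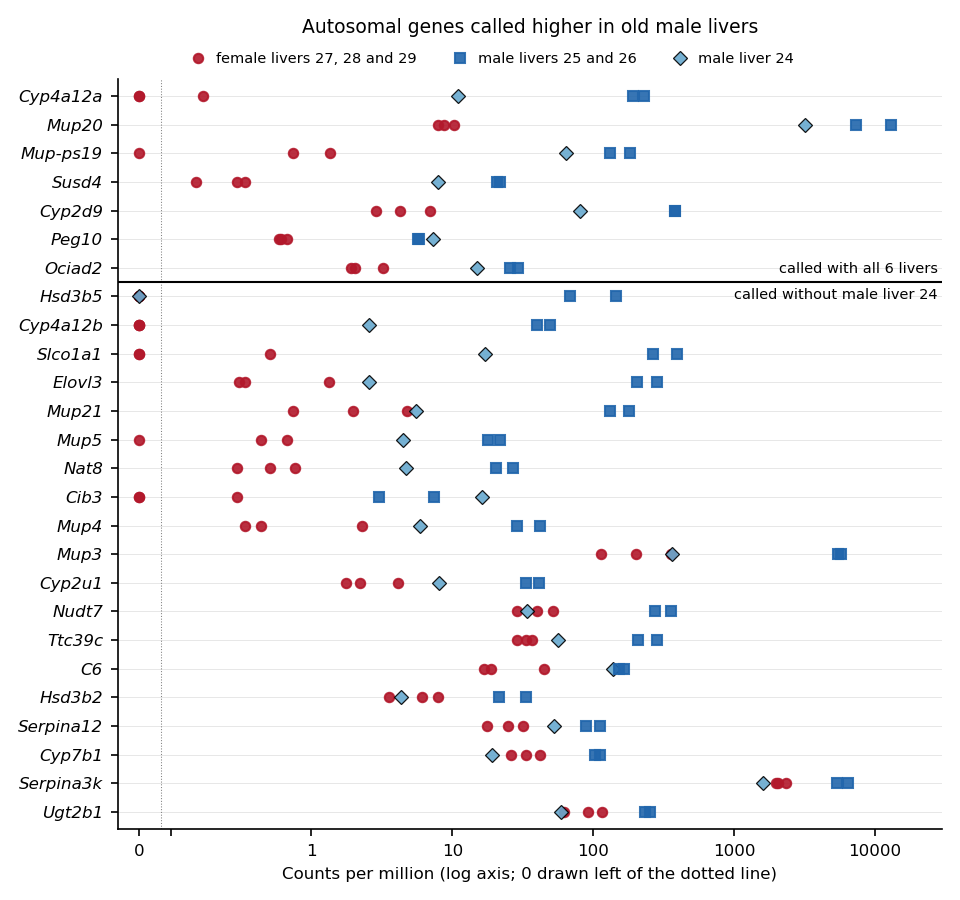
Level in CPM on a log axis of the 7 autosomal genes called higher in males with all 6 livers (top) and of 19 members of the male-biased and urinary protein lists called without male liver 24 (bottom), 1 point for each liver. Male liver 24 lies below males 25 and 26 in all rows but Peg10 and Cib3, and within or below the females in several.

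A list of 44 genes known as female-biased in mouse hepatocytes had 21 members called higher and 0 lower, against 0.153% and 0.0369% of all autosomal genes tested. Its median log2 fold change was 5.53 (5.39 with genes at 0 counts in a group set to their bound) beside -0.03 over all autosomal genes tested. The 4 most abundant of the called members were Cyp3a41a, A1bg, Cyp3a41b and Cyp2c69, given above. Since the list was drawn up with earlier results of these libraries known, its direction is not independent evidence, and the same holds for the lists that follow. In 41 of the 44 all females lay above all males, as in 5.22% of all autosomal genes tested. Without male 24, 32 were called, all higher in females, against 0.403% of all autosomal genes tested. The 11 gained included Prlr, the prolactin receptor, at 1109.9, 1186 and 533 CPM in females and 65.3, 107 and 170.3 CPM in males, and Hamp2, a hepcidin, at 1021, 299 and 175 CPM in females and 3.65, 8.45 and 16.8 CPM in males. Cux2, the female-enriched repressor, was at 45.4, 27.7 and 33.5 CPM in females and 2.03, 0 and 0 CPM in males (edgeR adjusted p without male 24 = 0.000299). Cyp2b9, a cytochrome of the Cyp2b family, did not pass edgeR with or without male 24 (adjusted p = 0.229 and 0.105), at 421, 60.01 and 284 CPM in females and 2.57, 0.402 and 13.1 CPM in males, with the lowest female value in liver 28 again. Leaving out male 25 left 9 members called, and leaving out female 29 or male 26 left 12.

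The matching list of male-biased hepatocyte genes had 35 members tested, of which Cyp4a12a, Cyp2d9 and Susd4 were called higher in males and 0 in females. Over all autosomal genes tested the shares were 0.0369% and 0.153%. Its median log2 fold change was -2.20 (-2.40 without male 24). All males lay above all females in 18 members, against 5.27% of all genes, and males 25 and 26 did so in 31, against 13.8%. Without male 24, 18 members were called, all higher in males, against 0.475% of all autosomal genes tested. Among them Serpina3k, a protease inhibitor, was at 2056, 1999 and 2343 CPM in females and 1605, 6505 and 5386 CPM in males, and Cyp7b1, which hydroxylates oxysterols, at 33.4, 42.1 and 26.3 CPM in females and 19.2, 103 and 113 CPM in males, with liver 24 below the females for both. Leaving out any of the other 5 livers left 0 or 1 member called, 0 without female 29. Of 20 urinary protein genes tested, only Mup20 passed with 6 livers and 5 without male 24, all higher in males. Over all autosomal genes tested, 0.0369% and 0.475% were called higher in males. Their summed level was 9446, 604 and 1622 CPM in females and 3801, 31934 and 29633 CPM in males. Female 27 was high among the females, and in Mup17 (419, 11.8 and 33.4 CPM in females, 6.49, 243 and 344 CPM in males) it exceeded all males. Reads of these near-identical genes may be divided among copies, so single Mup values other than Mup20 are uncertain.

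None of 20 genes of growth hormone signalling passed edgeR's test with 6 livers (5 had an unadjusted p under 0.05, all higher in females, and DESeq2 called 2), while Prlr and Cux2 passed without male 24. Over all autosomal genes tested, 2.47% were higher in females at an unadjusted p under 0.05. DESeq2 called 0.569% of them higher in females, and edgeR without male 24 called 0.403%. Ghr, the receptor, was at 599, 517 and 252 CPM in females and 111, 316 and 411 CPM in males. Stat5b was at 41.2, 36.2 and 39.3 CPM in females and 28.2, 36.8 and 38.98 CPM in males. Igf1, the hormone that growth hormone induces in liver, was at 716, 819 and 659.6 CPM in females and 426, 622 and 700.2 CPM in males (log2 fold change 0.33 ± 0.31, edgeR adjusted p = 0.993), and Igfbp4, a carrier of it, at 868, 876 and 599 CPM in females and 320.1, 495 and 444 CPM in males. Male 24 was the lowest liver for Ghr, Stat5b, Igf1 and Igfbp4. Bcl6, a repressor of female-biased genes in males, was at 4.12, 5.24 and 10.9 CPM in females and 5.81, 32.8 and 16.1 CPM in males, where male 24 lay among the females (edgeR adjusted p = 0.941, and 0.127 without male 24).

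Other hepatocyte programmes had no autosomal gene called with 6 livers: edgeR called 0 of 232 genes in 10 lists (growth hormone signalling included). An unadjusted p under 0.05 was reached by 48, of which 35 were higher in females and 13 lower, against 2.47% and 2.31% of all autosomal genes tested. DESeq2 called 15, of which 11 were higher and 4 lower, against 0.569% and 0.353% of all. Voom with quality weights called 6, against 0.242% higher and 0.19% lower over all. Drug oxidation had a median of 0.47 over 25 genes and conjugation one of -0.02 over 32, beside -0.03 for all genes. Without male 24 these medians were 0.034 and -0.15, beside 0.053 for all genes, and over the other 5 livers left out in turn they ranged from 0.19 (female 27) to 0.77 (male 26) and from -0.13 (female 27) to 0.29 (male 25). Cyp2e1, which oxidises ethanol, was at 3953, 2827 and 3207 CPM in females and 809, 2881 and 4544 CPM in males. Mgst1, a glutathione transferase of membranes, was at 2031, 1819 and 1872 CPM in females and 1068, 3673 and 3002 CPM in males, and its soluble counterpart Gstm1 at 1247, 803 and 1327 CPM in females and 1179, 1551 and 1467 CPM in males. Females 27, 28 and 29 lay between male 24 and the other males for Mgst1 and overlapped the males for Gstm1. For bile acids, Cyp7a1, the rate-limiting enzyme of their synthesis, was at 403, 117 and 247 CPM in females, all above 30.3, 42.2 and 83.6 CPM in males, without passing edgeR (adjusted p = 0.355; DESeq2 0.00392). The uptake carrier Slco1b2 was at 862, 739.9 and 707 CPM in females and 219, 849 and 898 CPM in males. The export pump Abcb11 was at 672, 392 and 527 CPM in females and 162, 577 and 540.2 CPM in males. In both, males 25 and 26 overlapped the females and male 24 was the lowest liver. Without male 24, 3 of 22 bile acid genes were called higher in males (Slco1a1, Cyp7b1 and Nr0b2) and 2 in females (Slco1a4 and Abcc4). Over all autosomal genes tested the shares were 0.475% and 0.403%. Slco1a1 and Cyp7b1 are also in the male-biased hepatocyte list.

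Lipogenic genes had 18 of 21 members with a log2 fold change below 0 (10083 of 18982 over all autosomal genes tested). Their median was -0.81 (-1.20 without male 24). None passed edgeR with 6 livers, and DESeq2 called 0. An unadjusted p under 0.05 was reached by 4, all lower in females, against 2.31% of all autosomal genes tested. Their summed level was 7641, 3495 and 7233 CPM in females and 7006, 22168 and 21645 CPM in males, so that females 27 and 29 lay above male 24. All females were below all males in 1 of the 21 members, against 5.27% of all autosomal genes tested. Scd1, the desaturase that makes oleate, was at 3449, 1070.2 and 4387 CPM in females and 4996, 14806 and 15294 CPM in males. The males 25 and 26 were over 3 times the highest female, and male 24 lay just above it (edgeR adjusted p = 0.935, and 0.103 without male 24). Fasn, fatty acid synthase, was at 553, 248 and 227 CPM in females and 306, 1325 and 779.9 CPM in males. Acly, which supplies its acetyl-CoA, was at 327, 188 and 251 CPM in females and 210.0, 851 and 891 CPM in males and was called without male 24, as was the elongase Elovl5 (edgeR adjusted p = 0.0192 for Acly). Of the 16 lipid droplet genes, 4 were called lower and 1 higher in females without male 24, against 0.475% and 0.403% of all autosomal genes tested. Cidec, which fuses droplets, had no count in females and was at 1.62, 2.41 and 8.68 CPM in males. Cd36, a fatty acid importer and the 1 gene of the list called higher in females without male 24, was at 189, 131 and 152 CPM in females and 113, 41.04 and 55.8 CPM in males. Male 24 lay between the groups in Cd36. Plin2, the coat protein of droplets, was at 195, 165 and 217 CPM in females and 136, 244 and 290.4 CPM in males, and Fabp5, a fatty acid carrier, at 30.95, 327 and 83.8 CPM in females and 104, 275 and 228 CPM in males, neither called.

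Targets of PPARα, cholesterol synthesis and the nitrogen and glucose enzymes gave no call by edgeR with 6 livers. Unadjusted p-values under 0.05 numbered 4 of 30, 1 of 21 and 1 of 24. Over all autosomal genes tested, 2.47% were higher in females and 2.31% lower at that threshold. DESeq2 called Acot3 alone, which is also in the female-biased hepatocyte list, against 0.569% of all called higher in females. Fabp1, a fatty acid carrier of hepatocytes, was at 1259.6, 784 and 1043 CPM in females and 257, 2316 and 1871 CPM in males. In Fabp1 the females lay between male 24 and the other males. Hmgcs1, early in cholesterol synthesis, was at 755, 985 and 387 CPM in females and 289, 703 and 630.0 CPM in males, and Sc5d, near its end, at 758, 492 and 555 CPM in females and 337, 797 and 856 CPM in males. Cps1, which opens the urea cycle, was at 2313, 1616 and 1643 CPM in females and 902, 1582 and 1799.7 CPM in males, and Ass1, a later step, at 2119, 817 and 1637 CPM in females and 847, 1824 and 1622 CPM in males. The common feature was male 24, the lowest liver for 22 of 30 PPARα genes, 19 of 21 cholesterol genes, 20 of 24 nitrogen and glucose genes and 14 of 14 hepatocyte identity genes, against 21.8% of all autosomal genes tested. Apoa1, of the last list, was at 4883, 5873 and 6000.4 CPM in females and 4575, 7756 and 7565 CPM in males.

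Acute phase genes had 24 of 24 log2 fold changes above 0 (8899 of 18982 over all autosomal genes tested), all females above all males in 10 (5.22% of all) and a median of 1.11 (1.28 without male 24). None passed edgeR with 6 livers, and Orm3 passed without male 24 (0.403% of all autosomal genes tested were called higher in females there). An unadjusted p under 0.05 was reached by 12, all higher in females, against 2.47% of all. DESeq2 called 1, against 0.569% of all called higher in females. Female 28 carried much of the level, and the median was 0.48 without it. The serum amyloid Saa1 was at 38.4, 2337 and 67.3 CPM in females and 52.6, 75.04 and 23.9 CPM in males, and Saa2 at 43.9, 4888 and 89.3 CPM in females and 68.7, 91.7 and 21.3 CPM in males, so that the other females lay among the males. The fibrinogen chain Fgb was at 6316, 14572 and 6753 CPM in females and 3813, 5791 and 6554 CPM in males and Fga at 5278, 10584 and 5947 CPM in females and 2467, 4429 and 5638 CPM in males, both highest in female 28. C3, the central complement protein, was at 12072, 22184 and 10296 CPM in females and 4459.7, 5082 and 6811 CPM in males, without overlap (log2 fold change 1.45 ± 0.57, edgeR adjusted p = 0.941; DESeq2 0.0132). The terminal complement genes C6 and C8b went the other way and were called without male 24, C6 at 16.9, 44.6 and 18.8 CPM in females and 139, 167 and 152 CPM in males.

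**Figure D3:**
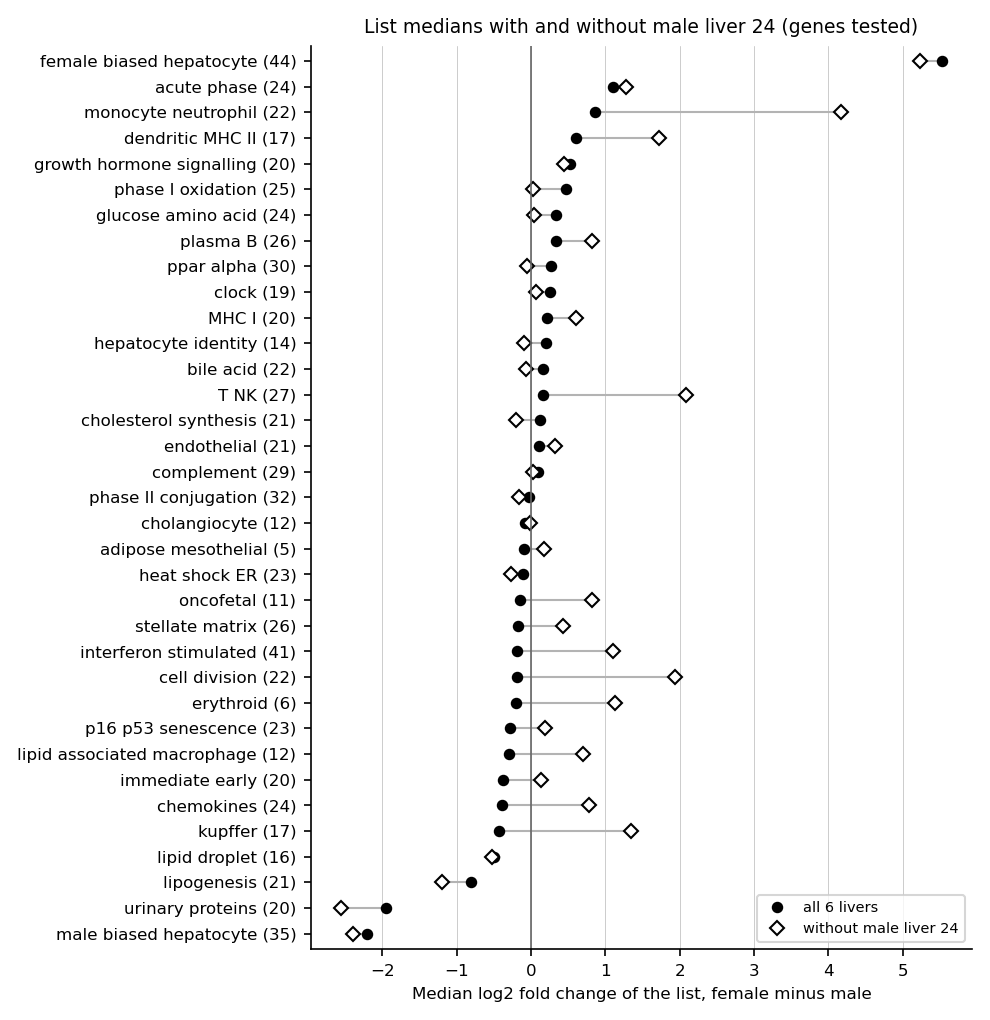
Median log2 fold change (female minus male) of 35 gene lists with at least 5 autosomal genes tested, with all 6 livers (filled) and without male liver 24 (open); the number of genes is in brackets. The hepatocyte sex-bias lists lie far from 0 in both fits, while the Kupffer, T and NK and cell division lists lie between -0.43 and 0.16 with all 6 livers and between 1.35 and 2.09 without liver 24.

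With 6 livers, edgeR called 0 of the 229 autosomal genes in 10 immune lists. Of these, 26 had an unadjusted p under 0.05, 17 higher in females and 9 lower, against 2.47% and 2.31% of all autosomal genes tested. DESeq2 called 7 (C3, C6, C8b, Igtp, Irgm2, Mbl2 and Tox), and voom with quality weights called 2. Of the 7, 5 were higher in females and 2 lower, against 0.569% and 0.353% of all autosomal genes tested. The complement list held 2 of those higher and 2 of those lower. The median log2 fold change of the immune lists was 0.18 with 6 livers and 1.13 without male 24. Of the 229, 92 had their highest level in that liver, against 27.6% of all autosomal genes tested. Without it edgeR called Tox and Gbp7 higher in females and C6 and C8b higher in males (0.403% and 0.475% over all autosomal genes tested). C6 and C8b are of the complement list, and C6 is also in the male-biased hepatocyte list. DESeq2 without male 24, added after seeing the data, called 29 of 227 (485 of 18098 over all autosomal genes). Of the 227, 89 had an unadjusted p under 0.05 and were higher in females, against 7.46% of all autosomal genes tested (8 were lower, against 4.61%). The medians of the Kupffer, lipid-associated macrophage, interferon and chemokine lists changed from below 0 to above 0 when this 1 liver was left out, and those of the interferon and lipid-associated macrophage lists also did so without female 27 (0.080 and 0.014).

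Kupffer cell genes show this most plainly. Their 17 tested members summed to 741, 1949 and 1811 CPM in females and 4097, 703 and 425 CPM in males, and 15 of 17 were highest in male 24. Clec4f, specific to Kupffer cells, was at 121, 253 and 399 CPM in females and 716, 122 and 71.8 CPM in males. Cd5l, a survival factor they secrete, was at 105, 364 and 216 CPM in females and 377, 65.8 and 53.9 CPM in males. Without male 24 all 17 had a log2 fold change above 0 with a median of 1.35, with no member called by edgeR (Clec4f adjusted p = 0.271, Cd5l 0.131). Female 27 was level with male 25 in Clec4f, while females 28 and 29 were above males 25 and 26 in both genes. Monocyte and neutrophil genes summed to 129, 953 and 382 CPM in females and 1365, 129.6 and 76.4 CPM in males. Lyz2, a lysozyme, was at 104, 196 and 239 CPM in females and 906, 94.4 and 56.9 CPM in males, highest in male 24. S100a9, a neutrophil alarmin, was at 2.13, 187 and 23.7 CPM in females and 89.3, 3.82 and 2.30 CPM in males, highest in female 28 with male 24 next. The list's median of 0.86 became 4.17 without male 24 and -1.20 without female 28.

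T and NK cell genes and MHC class II genes had their highest sums in female 29 and male 24. T and NK cell genes summed to 35.7, 52.4 and 163 CPM in females and 242, 22.9 and 11.5 CPM in males. Cd4, a coreceptor of helper T cells, was at 2.13, 1.01 and 46.02 CPM in females and 127, 2.41 and 1.24 CPM in males, and Cd3e, part of the T cell receptor complex, at 0.915, 1.35 and 6.91 CPM in females and 5.001, 0.201 and 0.709 CPM in males. Cd4 thus made up much of the sum in male 24, while Cd3e was highest in female 29. Of the 27 T and NK cell genes tested, 13 were highest in male 24, against 27.6% of all autosomal genes tested. Tox, a factor of exhausted T cells that is also in the female-biased hepatocyte list, was at 15.6, 12.5 and 14.4 CPM in females and 6.35, 2.82 and 3.72 CPM in males, with no overlap (edgeR adjusted p = 0.229, and 0.015 without male 24). Female 29 was the highest liver for MHC class II genes, which summed to 262, 382 and 1504 CPM in females and 1036, 316 and 135 CPM in males. Cd74, the invariant chain, was at 125, 186 and 779 CPM in females and 600.1, 148 and 64.7 CPM in males, and the class II chain H2-Ab1 at 51.4, 74.4 and 255 CPM in females and 130.0, 58.7 and 23.4 CPM in males. Class I genes gave no call (20 tested, median 0.22, 0.61 without male 24 and 0.037 without female 29), with B2m at 2012, 2657 and 3081 CPM in females and 2282, 2436 and 1995 CPM in males and H2-Q10 at 1409, 1300.1 and 1119 CPM in females and 758, 1770.5 and 1599 CPM in males. Plasma and B cell genes had no call either (26 tested, median 0.33, 0.83 without male 24 and 0.017 without female 29), with Xbp1, a factor of secretory cells, at 124, 134 and 123 CPM in females and 101, 127 and 140.1 CPM in males and Sdc1, which hepatocytes express as well, at 184, 138 and 112 CPM in females and 70.3, 84.5 and 99.6 CPM in males. Without female 29 the medians of the T and NK and class II lists were -0.62 and -0.40, against 0.16 and 0.61 with all livers and 2.09 and 1.72 without male 24.

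Interferon-stimulated genes had a median of -0.18 over 41 members with 6 livers, -0.59 to 0.080 without 1 of the other 5 livers (male 26 and female 27) and 1.11 without male 24. With 6 livers, 7 members had an unadjusted p under 0.05 and were higher in females, and 1 was lower. The shares over all autosomal genes tested were 2.47% and 2.31%. DESeq2 called 2 members, both higher in females, against 0.569% of all. Iigp1, an interferon-inducible GTPase, was at 605, 1178 and 1861 CPM in females and 397, 569 and 594 CPM in males, all females above all males but not called (edgeR log2 fold change 1.22 ± 0.45, adjusted p = 0.938). Gbp7, a guanylate-binding protein, was at 49.1, 84.2 and 118 CPM in females and 51.1, 18.9 and 20.9 CPM in males and passed only without male 24 (edgeR adjusted p = 0.0393). Of the chemokines, the abundant Cxcl12 was at 230.1, 203 and 191 CPM in females and 113, 174 and 177 CPM in males, Cxcl9, which interferon gamma induces, was at 80.97, 94.3 and 229.7 CPM in females and 62.4, 32.99 and 19.5 CPM in males, and Cxcl13, a B cell attractant, was at 3.05, 30.9 and 59.7 CPM in females and 482, 90.3 and 2.48 CPM in males, highest in male 24. Trem2, the receptor of lipid-associated macrophages, was at 6.86, 2.87 and 9.85 CPM in females and 49.6, 3.02 and 2.48 CPM in males, again highest in male 24. Apoe of the same list, which hepatocytes also express, was at 22454, 18761 and 16914 CPM in females and 11500.2, 19449.7 and 18511 CPM in males, and the lysosomal protease Ctsd at 215, 249 and 272 CPM in females and 443, 245 and 183 CPM in males.

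**Figure D4:**
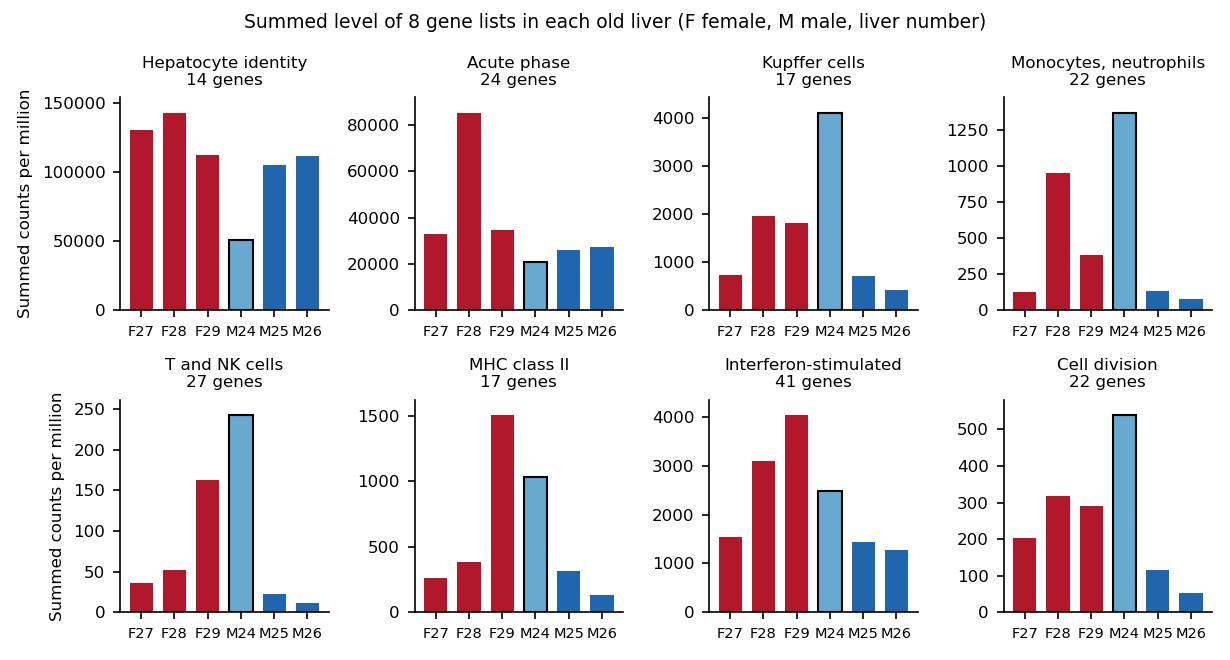
Summed CPM of the autosomal genes of 8 lists in each liver, 1 bar for each female (red) and male (blue; male 24 outlined) liver, on linear axes from 0. Male liver 24 has the highest sum for Kupffer, monocyte and neutrophil, T and NK and cell division genes and the lowest for hepatocyte genes, female 28 the highest for acute phase genes and female 29 the highest for MHC class II and interferon-stimulated genes.

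Genes of cell division were likewise low in males 25 and 26 and highest in male 24 for 19 of 22, with sums of 203, 319 and 289.5 CPM in females and 538, 116 and 54.4 CPM in males. Mki67, a marker of cycling cells, was at 24.2, 113 and 43.8 CPM in females and 164, 10.7 and 5.85 CPM in males, and Ccnd1, cyclin D1, at 125, 56.3 and 99.8 CPM in females and 65.6, 45.9 and 10.5 CPM in males; no member passed edgeR with 6 livers or without male 24 (0 and 0 called, 0 with an unadjusted p under 0.05 with 6 livers, and 0 by DESeq2). Cdkn2a, the gene at which the cassette reports, was at or near the limit of detection in every liver, at 0.152, 0.676 and 0.441 CPM in females and 0.135, 0.201 and 0.177 CPM in males (edgeR log2 fold change 1.22 ± 1.03, adjusted p = 0.988), so a sex difference in it was not detectable at this depth. Of 23 genes of the p16 and p53 pathways and the senescence secretome, 0 passed (0 with an unadjusted p under 0.05 and 0 by DESeq2). Cdkn1a, encoding p21, was at 17.99, 19.8 and 14.1 CPM in females and 36.9, 19.7 and 15.8 CPM in males, highest in male 24. The p53 target Ccng1 was at 45.4, 38.9 and 44.7 CPM in females and 44.3, 38.8 and 33.5 CPM in males and Hmgb1, a chromatin protein that senescent cells release, at 47.6, 54.1 and 60.6 CPM in females and 55.8, 61.4 and 57.05 CPM in males, with overlap in both.

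Endothelial, stellate and bile duct genes gave no call. None of 78 genes in 7 lists of other cells passed edgeR with 6 livers (3 had an unadjusted p under 0.05, and DESeq2 called 0) or without male 24. Of the 3, 1 was higher in females and 2 lower, against 2.47% and 2.31% of all autosomal genes tested. Dcn, a matrix proteoglycan of stellate cells and fibroblasts, was at 247, 238 and 222 CPM in females and 324, 165 and 182 CPM in males, Fcgr2b of sinusoidal endothelium at 66.6, 74.9 and 70.7 CPM in females and 136, 56.1 and 56.3 CPM in males, and Krt8, of bile ducts and hepatocytes, at 198, 232 and 169.7 CPM in females and 328, 224 and 218 CPM in males. Globin RNA was high in female 28 and male 24, with Hbb-bs at 96.5, 438 and 106 CPM in females and 476, 123 and 90.5 CPM in males.

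The same comparison was made in 2 other sets of mice, which share no liver with these. In old p16-3MR mice given GCV (3 and 3 livers with the same batch label), edgeR called 6 autosomal genes, all higher in females (0.0316%, and 0 lower), with 1245 at an unadjusted p under 0.05 and 93 called by DESeq2. The library labelled GCV female 33 was dominated by mitochondrial RNA (64.0% of its counts). It held 1577 Xist counts, against 4162 and 5217 in the other GCV females and 0 to 2 in the GCV males, and 693 counts on Y genes, against 144 and 106 in those females and 609 to 858 in the males. The count was 272 without GCV male 34 and 1 without GCV female 33. Of the 36 genes, 4 were called there (Sult2a1, Cyp3a63-ps, Cyp3a41b and Cyp3a16), all 36 had the same direction and in 24 the sexes did not overlap (over all autosomal genes tested, the females were all above the males in 3.0% and all below in 5.86%). Without library 33, edgeR called 0 of the 36 there, all 36 had the same direction and in 29 the sexes did not overlap. With 1 liver fewer, non-overlap is also easier to reach. Cyp3a41a was at 10304, 1629 and 4478 CPM in GCV females 31, 33 and 35 and 3.29, 0.809 and 4.39 CPM in GCV males 30, 32 and 34. Mup20 was at 10.6, 1.95 and 7.93 CPM in females and 413, 56.4 and 1995 CPM in males. The sexes did not overlap in either gene.

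In young wild-type mice given vehicle (livers 4, 5 and 6 of females and 1, 2 and 3 of males), edgeR called 261 of 9570 autosomal genes, 111 higher in females (1.16%) and 150 higher in males (1.57%). Without young male 1 it called 590. The gene labels of that table had lost 9 letters, and 27 of the 36 genes could be matched to 1 label. All 27 had the same direction and 24 were called. Mup20 was at 113, 159.7 and 110.1 CPM in young females and 16269, 16936 and 16568 CPM in young males, and Cyp2d9 at 27.6, 21.8 and 16.97 CPM in females and 1220.5, 1289 and 1318 CPM in males. Slc22a26 was at 98.9, 115 and 90.5 CPM in females and 0.533, 0.219 and 0.777 CPM in males. The 3 matched genes that did not pass there were Cyp3a63-ps, Loxl4 and Rcan2. Rcan2 was at 7.37, 14.3 and 10.1 CPM in young females and 7.47, 6.36 and 5.05 CPM in young males (edgeR log2 fold change 0.75 ± 0.30, adjusted p = 0.254), against 2.96 ± 0.42 in the old livers. Of the 123 genes called only without male 24, 83 had a match, 76 of them with the same direction and 42 called. Of the genes that were at or near the female level in male 24, Hsd3b5 was at 191, 199.7 and 194 CPM and Elovl3 at 58.9, 136 and 143 CPM in the young males, while the urinary protein gene Mup4 was low in them (0.8, 0 and 0 CPM). The common biological coefficient of variation was 17.9% in the young livers, 44.5% in the old vehicle livers and 65.6% in the GCV livers. These fits held 12006, 19717 and 19738 genes in the same order, so the values do not compare spread over the same genes. The old vehicle value includes male 24, and the GCV value includes the female library dominated by mitochondrial RNA. The part of the gene sets and of these libraries in the values was not tested. The young wild-type livers differ from the old vehicle livers in age, genotype, batch label and length of treatment, which cannot be told apart. Differences between the sets were not tested.

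**Figure D5:**
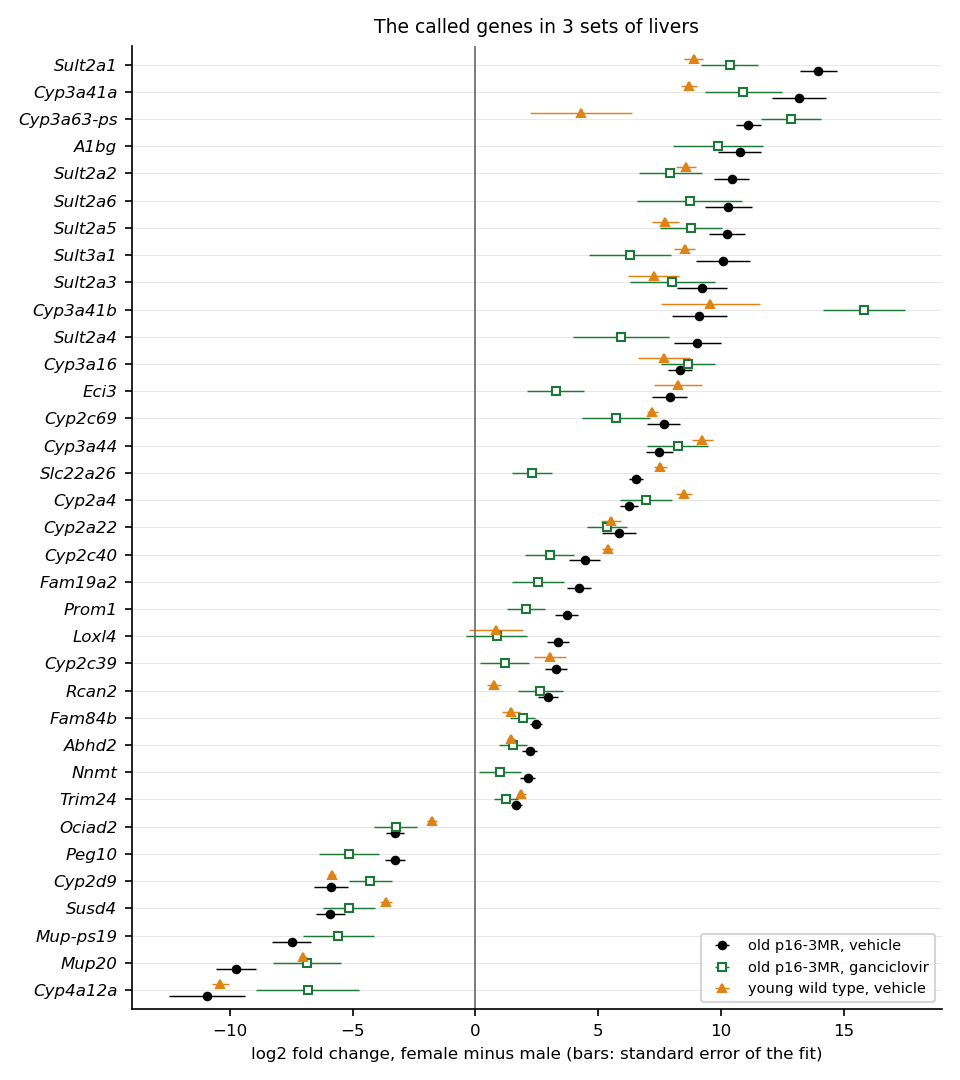
Log2 fold change (female minus male) of 35 of the 36 called genes with the standard error of the edgeR fit, in old p16-3MR mice given vehicle (black circles), old p16-3MR mice given GCV (open squares) and young wild-type mice given vehicle (triangles, 27 genes). Every point lies on the same side of 0 in all sets; for genes with no count in a group the fitted value depends on the prior count and is no bound.

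With 3 livers a side, an exact permutation test of a single value cannot go below p = 0.1, so the adjusted p-values rest on edgeR's sharing of the spread across genes. Each sex is 3 mice of 1 cohort, and litter, cage or estrous stage was not given in the labels.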

How the data were processed

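RNA of 24 mouse livers (15 ng each) was sequenced as Smart-3SEQ libraries, and the 6 vehicle-treated old p16-3MR livers were compared by sex. The authors checked reads with FastQC (0.11.9), trimmed them with Trim Galore (0.6.10), estimated transcript abundance with Salmon (1.10.3) on a pre-built mouse index (mm10 in the submitters' processing notes), summed it to genes and left out genes under 3 reads. The authors deposited estimated counts per gene, given as whole numbers and not scaled. Smart-3SEQ reads come from transcript 3′ ends, so CPM was not divided by length and levels of different genes were not tested against each other.

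Symbols, chromosomes and coordinates came from GENCODE M21 (GRCm38): 21698 of 21755 Ensembl IDs had a symbol. Of 12643 wild-type labels, 10500 matched 1 symbol after the letters lost from them were removed from the symbols. Every row named a gene. Genes with at least 3 counts summed over the fitted livers were tested in R 4.3.3 with edgeR 4.0.16 (TMM, glmQLFit and glmQLFTest, Benjamini-Hochberg over all genes of the table, adjusted p under 0.05), after the scripts were tested on simulated data; autosomal genes were then counted. CPM are TMM-scaled. The authors' own test was DESeq2; DESeq2 1.42.0 was an alternative here, as were limma 3.58.1 (voom with quality weights), other scaling, filters, liver sets and leaving out each liver. DESeq2 and voom without male 24 were added after seeing the data. SE is the log2 fold change divided by the root of the quasi-likelihood F.

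The members and the 37 gene lists (782 genes) were chosen with earlier results of these data known. Named genes are, of called genes whose mean reached 10 counts and whose sexes did not overlap, the 15 largest changes per direction and the 10 highest mean CPM; in each list the called members (the 4 with highest CPM if more) or, with none called, the 2 with highest CPM; and Cdkn2a. Some genes the rule takes are not reported here. Other genes are named as list members or calls, chosen after their values were seen. Promoters are RefSeq's (GRCm38.p6), the one nearest the GENCODE start for each gene. Motif shares are counts of promoters with at least 1 match. Depth was 5211559 to 7160172 counts a library. Livers are separate mice, and the sexes compared share no liver number.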

Additional observations from a re-analysis of the deposited data

Results flagged for a closer look

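Mup5, a urinary protein gene called higher in males only without male 24, had non-overlapping sexes in opposite directions in the old and young mice: 0, 0.676 and 0.441 CPM in old females against 4.46, 21.7 and 17.9 CPM in old males, and 7.89, 5.72 and 9.43 CPM in young wild-type females against 4.001, 4.39 and 3.11 CPM in young males (log2 fold change 1.00 ± 0.32, edgeR adjusted p = 0.139). The difference between the sets was not tested, and reads of near-identical Mup copies cannot be assigned with certainty.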

How the results depend on the processing

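The count of 36 autosomal genes in the old vehicle livers was 32 with DESeq2's size factors in edgeR, 27 with filterByExpr and 30 with adjustment over autosomal genes alone. It was 175 with DESeq2 (108 higher in females, 67 lower), 82 with voom and quality weights (46 and 36), 21 with all 12 livers of the genotype fitted, 19 with 11 livers (without GCV-treated female 33) and 58 at an adjusted p under 0.1. Leaving out 1 liver gave 15 (without male 25) to 159 (without male 24). Added after seeing the data, DESeq2 without male 24 gave 485 and limma-voom without it 128; all 159 edgeR calls were among the 485. Of the female-biased list, DESeq2 called 36 members and the fit of 12 livers 13, against 21, and leaving out 1 liver gave 9 to 32. Of the male-biased list, DESeq2 called 15 members and voom 10, against 3, and leaving out 1 liver gave 0 to 18. The 6 genes of the GCV livers were 93 with DESeq2, 10 with DESeq2's size factors, 16 with 12 livers fitted, 1 with filterByExpr and 53 with voom, and leaving out 1 liver gave 1 to 272. The 261 genes of the young livers ranged from 170 to 590 on leaving out 1 liver. The cause of these shifts was not tested.

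None of the 36 genes changed direction under 11 settings; in 268 of 396 gene and setting pairs they remained called. Of 37 list medians, 16 changed sign without male 24 and 10 with voom and quality weights. No paired analysis was possible because the sexes compared share no liver number. Where an arm held 2 livers, edgeR pooled the spread. Genes near the limit of 3 counts, such as Cdkn2a, cannot show a difference at this depth, and 3 mice a sex limit everything else.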

Other observations

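Genes of daily rhythm, early response and protein folding were tested as signs of the state of the tissue at collection. Of 73 autosomal genes in 4 such lists (oncofetal genes included), edgeR called 1 and DESeq2 called 2. The edgeR call was Prom1, which is also in the female-biased hepatocyte list. An unadjusted p under 0.05 was reached by 10, of which 2 were higher in females and 8 lower. The shares over all autosomal genes tested were 2.47% and 2.31%. Of the 8, 3 were early response genes and 3 protein folding genes. Clock, a core rhythm factor, was at 51.4, 43.3 and 43.5 CPM in females and 20.3, 50.5 and 75.3 CPM in males, and Bhlhe40, a rhythm repressor, at 74.3, 66.6 and 50.6 CPM in females and 86.4, 43.1 and 87.5 CPM in males, so the sexes overlapped in both. Egr1, an immediate early factor, was at 16.8, 16.6 and 23.97 CPM in females and 42.7, 94.2 and 13.997 CPM in males, highest in male 25. The chaperone Hsp90b1 was at 1683, 1687 and 1337 CPM in females and 968, 1463 and 1167 CPM in males and Hspa8 at 1081, 729 and 897 CPM in females and 885, 1314 and 724 CPM in males, with overlap in both.

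Esr1, the estrogen receptor, was at 67.4, 33.8 and 38.1 CPM in females and 10.5, 17.3 and 21.1 CPM in males with no overlap (edgeR adjusted p = 0.359, and 0.0397 with DESeq2). It was chosen after its values were seen.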
